A study of Mus musculus with 69 samples.

Results

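The genes described here are 37 lysosomal genes, chosen by symbol: 7 cysteine cathepsins, 4 other lumenal enzymes acting on proteins, 10 glycosidases and lipid hydrolases, 8 membrane proteins, 3 lumenal activators and carriers, and 5 subunits of the vacuolar proton pump (V-ATPase). The deposited expression tables list 24537 genes, and all 37 were among the genes tested, which reached 1 TPM (transcripts per 1000000) in 2 or more libraries of a table. Messenger RNA was sequenced from bone marrow-derived macrophages (BMDMs), which are bone marrow cells grown for 7 days with macrophage colony-stimulating factor. The cells came from female mice of 5 inbred strains aged 8 to 12 weeks. These were SPRET/EiJ (SPRET, a separate mouse species), BALB/cJ (BALB), C57BL/6J (C57), PWK/PhJ (PWK), which is wild-derived, and NOD/ShiLtJ (NOD). The cells were left untreated (basal) or given interleukin-4 (IL-4) at 20 ng per ml for 24 h. Each of these groups had 3 libraries, except basal PWK with 2. A separate time course held C57 and SPRET cells at basal and after 1, 6 and 24 h of IL-4, with 2 libraries per group. A further set compared Egr2 fl/fl cells (Egr2WT) with LyzM-Cre Egr2 fl/fl cells (Egr2MKO), in which Cre acts in myeloid cells, at the same times and with 2 libraries per group. The floxed allele was thus shared by both of the latter genotypes. First-generation (F1) hybrids of C57 with SPRET and of C57 with NOD, with 2 libraries per group, gave values for each parental allele.

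Lysosomes are acidic compartments in which macrophages degrade what they engulf and what they recycle from their own cytoplasm. Cathepsins cut proteins, glycosidases and lipid hydrolases take apart sugar chains and membrane lipids, helper proteins such as the saposins present lipids to them, membrane proteins shield and move the compartment, and the V-ATPase pumps in the protons that the enzymes need. Many lysosomal genes share a promoter element with the letters CACGTG, which the factors TFEB and TFE3 are known to bind. IL-4 drives macrophages into the alternatively activated state, in which genes such as Arg1 (arginase 1) are induced.

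RefSeq promoter windows (GRCm38.p6, 250 bases before to 50 bases after the gene start) were matched for 31 of the 37 genes, with 33 windows. The letters CACGTG, which read the same on both strands, occurred in 11 of these 33 windows (33.3%) and in 2349 of all 32851 windows (7.15%). The longer palindrome TCACGTGA, which contains them, occurred in 6 of the 33 (18.2%) and in 320 of all windows (0.974%). The genes with the longer form were Atp6v0d1, Atp6v1a, Ctsa, Ctsd, Gla and Mcoln1, and those with the shorter form alone were Ctsl, Gaa, Glb1, Lamp1 and Naglu. A match is a description of these letters and was not tied to binding. Sequences are shown for 4 genes, the pair called with IL-4 in most strains and a pair with the longer form, written 5′ to 3′ on the strand of the gene with the matches in capitals. Atp6v0a1 lies at chr11:101010148-101010447 on the plus strand. Ctsl lies at chr13:64370471-64370770 on the minus strand, with its match starting 236 bases before the gene start. Ctsd lies at chr7:142387778-142388077 on the minus strand, with capitals starting 245 and 99 bases before the start. Gla lies at chrX:134600956-134601255 on the minus strand, with capitals starting 228 and 195 bases before the start. The Atp6v0a1 window held neither form, and its RefSeq start lies 946 bases downstream of the gene start in the annotation of the expression tables (position 101009452), where no window was examined. Of the 33 windows, 26 had a start within 100 bases of that annotation and 7 did not. The Ctsa matches lay only in a window whose start is 901 bases downstream of that annotation. The Ctsa window at the annotated start held 0. The start of the Atp6v1a window lay 240 bases upstream of the annotated one.
Atp6v0a1: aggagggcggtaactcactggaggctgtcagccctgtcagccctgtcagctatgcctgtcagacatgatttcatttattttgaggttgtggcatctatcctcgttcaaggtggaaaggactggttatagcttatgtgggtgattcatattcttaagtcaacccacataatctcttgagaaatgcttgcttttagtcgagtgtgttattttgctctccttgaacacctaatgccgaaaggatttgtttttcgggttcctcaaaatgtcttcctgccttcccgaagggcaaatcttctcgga
Ctsl: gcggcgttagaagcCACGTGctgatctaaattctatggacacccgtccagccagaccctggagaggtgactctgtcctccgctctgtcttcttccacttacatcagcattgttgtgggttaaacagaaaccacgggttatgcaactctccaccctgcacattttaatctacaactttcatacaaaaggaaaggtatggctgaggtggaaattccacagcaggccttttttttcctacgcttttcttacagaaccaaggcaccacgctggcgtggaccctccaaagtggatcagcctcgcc
Ctsd: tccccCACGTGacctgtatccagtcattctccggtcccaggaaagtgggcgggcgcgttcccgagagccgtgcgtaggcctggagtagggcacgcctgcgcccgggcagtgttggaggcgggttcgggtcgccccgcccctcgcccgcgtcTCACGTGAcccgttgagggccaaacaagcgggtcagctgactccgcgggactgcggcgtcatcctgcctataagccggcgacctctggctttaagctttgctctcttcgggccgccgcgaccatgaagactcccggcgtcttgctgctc
Gla: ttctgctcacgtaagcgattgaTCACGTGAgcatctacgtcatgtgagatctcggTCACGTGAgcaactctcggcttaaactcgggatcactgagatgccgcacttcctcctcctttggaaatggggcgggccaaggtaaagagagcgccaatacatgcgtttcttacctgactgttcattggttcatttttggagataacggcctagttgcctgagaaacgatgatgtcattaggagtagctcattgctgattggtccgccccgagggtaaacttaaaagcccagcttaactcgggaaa

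In units of 1000000 assigned tags, libraries held 7.02 to 22.5 in the 5-strain table, 5.70 to 24.0 in the time course and 4.69 to 32.9 in the Egr2 table. The 3 tables were scaled separately, so levels were tested only within a table. The summed TPM of 8 macrophage markers was 7565 to 27654 in the 5-strain table, lowest in PWK, whose libraries also had the highest sums of 7 neutrophil markers (548 to 599 TPM, with at least 1 TPM for 4 of the 7) and of 4 fibroblast markers (105 to 210 TPM, 2 of the 4). The other strains had neutrophil sums of 15.1 to 404 TPM, the upper end in SPRET, and fibroblast sums of at most 16.7 TPM. Dendritic cell, lymphocyte and mast cell marker sums stayed at or below 6.28, 0.741 and 8.97 TPM in this table. The part of these cells in the strain differences was not tested, and in bulk RNA fewer cells of a type and less RNA per cell cannot be told apart. Arg1 rose with IL-4 in all 5 strains, by 3.59 to 6.83 on the log2 scale.

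Lysosomal transcripts made up a large share of the message in every strain. Their summed level in basal C57 was 48878 to 49126 TPM, or 7.45% to 7.53% of all listed TPM, and in basal SPRET 32542 to 33980 TPM (4.72% to 4.95%). After 24 h of IL-4 the sums were 55810 to 56121 TPM in C57 and 40578 to 41448 TPM in SPRET, and they went from 43834 to 45910 TPM up to 46451 to 48403 TPM in NOD and from 36059 to 37043 TPM up to 40575 to 41220 TPM in PWK. In these 4 strains the treated libraries lay above the basal ones. In BALB the sums overlapped, at 59160 to 60610 TPM at basal and 60302 to 63481 TPM with IL-4. Ctsd, the main aspartic protease of the lysosome, contributed 11922 to 12127 TPM to basal C57, and Psap, the precursor of the saposins, 8168 to 9000 TPM. At the other end of the scale, Ctsc stood at 22.2 to 23.5 TPM and Galc at 25.5 to 29.3 TPM.

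The first comparison asked which of the genes IL-4 changed in each strain. A gene was called where the adjusted p (limma on log2(TPM + 1), Benjamini-Hochberg over all genes tested) was under 0.05 and the fold over 1.5. Fold changes below are differences on this log2(TPM + 1) scale, and errors are standard errors (SE). In C57, 3 of the 37 genes rose and 0 fell, against 5.0% higher and 5.27% lower among all genes tested. BALB had 1 higher and 0 lower (2.92% and 3.81% of all genes), NOD 2 and 0 (2.88% and 1.55%), and PWK 4 and 0 (4.12% and 1.75%). SPRET had 7 higher and 1 lower (6.8% and 4.27%). At an unadjusted p under 0.05 without the fold, limma gave 31 of the 37 genes for SPRET (50.8% of all genes tested), 27 for C57 (43.6%), 27 for PWK (35.6%), 21 for BALB (43.8%) and 19 for NOD (44.5%), in either direction. Of the 37 genes, 27 were called in none of the 5 strains, and the matching share of all genes tested was not counted. Over the 37 genes the median change was largest in SPRET, at 0.25, beside 0.11 over all genes tested. PWK had 0.16 (all genes 0.08), C57 0.13 (-0.04), NOD 0.11 (0.12) and BALB -0.06 (-0.11).

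**Figure D1:**
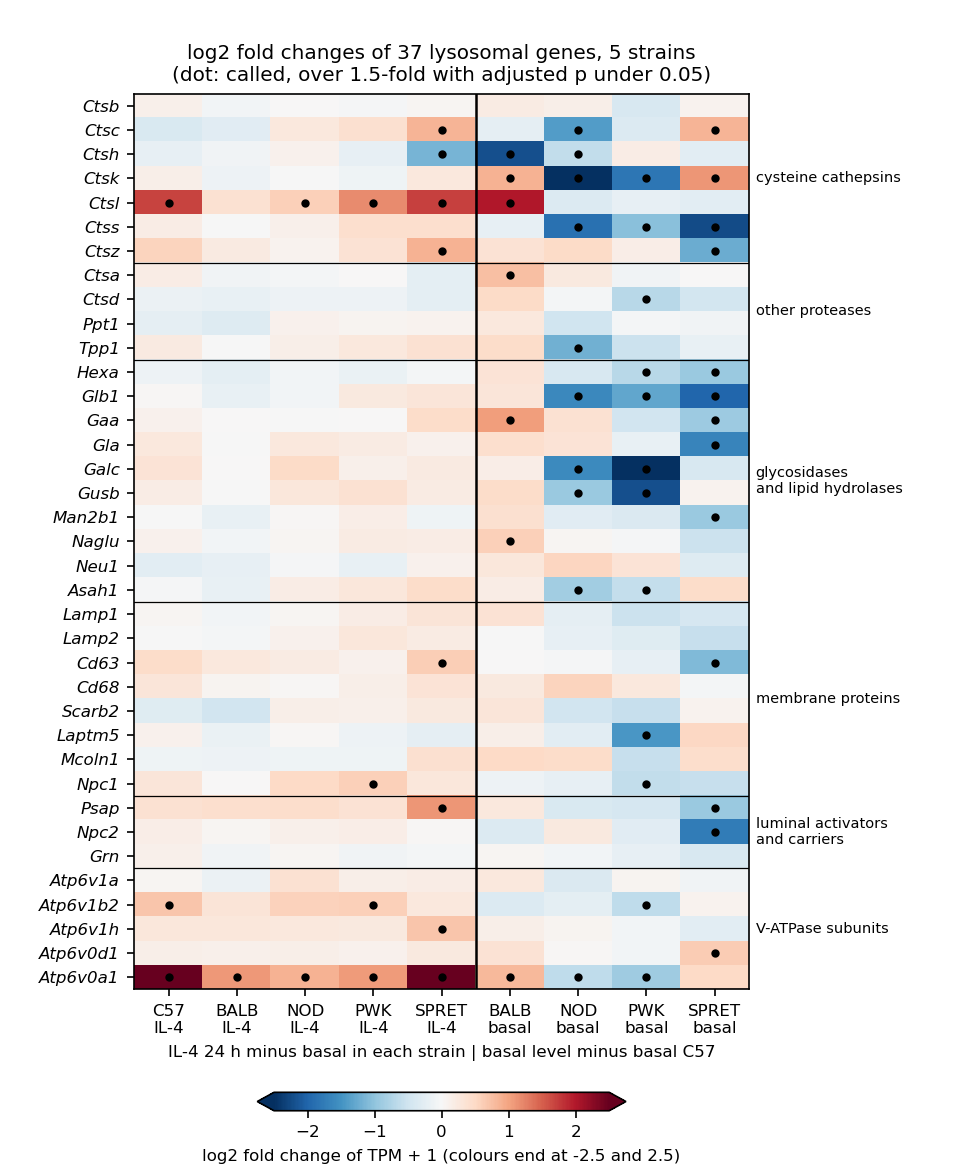
Heat map of log2 fold changes of TPM + 1 for the 37 genes (vertical axis, grouped by role) after 24 h of IL-4 in each of 5 strains and in basal cells of 4 strains relative to C57 (horizontal axis). Colours run from blue (lower) to red (higher) and end at -2.5 and 2.5, and dots mark called genes. Atp6v0a1 has a dot in all 5 IL-4 columns, and Ctsk, at -6.04 in NOD, has one in all 4 basal columns.

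Atp6v0a1, the a1 subunit of the membrane domain of the V-ATPase, was the only one of the 37 genes called with IL-4 in all 5 strains. In C57 it stood at 46.2, 45.7 and 40.9 TPM at basal and at 267, 252 and 254 TPM after IL-4, a change of 2.52 (SE 0.0684, adjusted p by limma 7.55e-20). SPRET libraries went from 60.4, 64.4 and 63.9 TPM to 469, 457 and 457 TPM (2.85, SE 0.0684). In these strains every treated library lay several-fold above every basal one. BALB began higher, at 79.2, 78.4 and 77.8 TPM, and reached 185, 163 and 157 TPM (1.09, SE 0.0684). NOD moved from 25.4, 29.9 and 29.4 TPM to 53.7, 49.0 and 54.2 TPM (0.87, SE 0.0684). PWK moved from 25.2 and 21.6 TPM to 47.3, 53.6 and 49.6 TPM (1.07, SE 0.0765). Treated NOD and PWK libraries thus lay below the basal BALB and SPRET libraries. The response itself was smaller than that of C57 by 1.43 in BALB (SE 0.0967), by 1.65 in NOD (SE 0.0967) and by 1.45 in PWK (SE 0.103), each called. In SPRET it was larger by 0.34 (95% interval 0.15 to 0.53), which was under the fold required. This SPRET difference was 0.14 under median-ratio scaling of the libraries. In the separate time course the 24 h changes were 2.44 in C57 and 2.39 in SPRET, a difference that was not tested.

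Ctsl, an endopeptidase of the cysteine cathepsins, was called in 4 of the 5 strains. C57 values were 288, 295 and 296 TPM at basal and 977, 979 and 906 TPM with IL-4 (1.70, SE 0.0486, adjusted p by limma 1.97e-19). SPRET went from 242, 234 and 252 TPM to 765, 787 and 823 TPM (1.70, SE 0.0486), and the difference between the responses of SPRET and C57 was 0.00 (95% interval -0.13 to 0.14). With median-ratio scaling of the libraries this difference was -0.19. In the separate time course the 24 h changes were 1.42 in C57 and 0.81 in SPRET, a difference that was not tested. PWK went from 257 and 254 TPM to 608, 579 and 569 TPM (1.19, SE 0.0543), and NOD from 225, 232 and 235 TPM to 343, 344 and 361 TPM (0.60, SE 0.0486). The NOD call was lost without treated replicate 3 (0.57) or basal replicate 1 (0.58). BALB stood apart before treatment, at 1236, 1132 and 1150 TPM, above every treated C57 library, and reached 1539, 1403 and 1651 TPM (0.38, SE 0.0486, not past the fold). The BALB response was smaller than that of C57 by 1.32 (SE 0.0687) and the NOD response by 1.10 (SE 0.0687). The basal BALB level was higher than that of C57 by 2.00 (SE 0.0486).

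Among the other V-ATPase subunits, Atp6v1b2, part of the catalytic domain, rose in C57 from 216, 225 and 200 TPM to 363, 350 and 320 TPM (0.69, SE 0.0519). It also rose in PWK, from 139 and 135 TPM to 216, 210 and 194 TPM (0.59, SE 0.0580), and its changes in NOD (0.57), BALB (0.33) and SPRET (0.26) were under the fold required. Npc1, which exports cholesterol from lysosomes, was called in PWK (29.8 and 26.6 TPM to 42.4, 44.6 and 42.7 TPM, change 0.60, SE 0.0980). Both PWK calls lay at the threshold. Npc1 was lost without treated replicate 2 (0.58) or basal replicate 2 (0.52), and Atp6v1b2 without treated replicate 1 (0.55), treated replicate 2 (0.57) or basal replicate 2 (0.56).

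SPRET macrophages had calls seen in none of the other 4 strains of this table, for 5 genes higher and 1 lower. Psap rose from 4451, 4598 and 4405 TPM to 9612, 9605 and 9747 TPM (1.11, SE 0.0393), where C57 libraries went from 8375, 9000 and 8168 TPM to 11256, 10588 and 11368 TPM. Ctsz, a carboxypeptidase, rose from 1682, 1684 and 1685 TPM to 3088, 3091 and 3097 TPM (0.88, SE 0.0394). SPRET basal libraries of both genes lay below those of C57. Ctsc, the dipeptidyl peptidase that activates granule proteases of immune cells, rose from 43.9, 41.8 and 41.0 TPM to 75.4, 76.5 and 79.1 TPM (0.85, SE 0.0770). Atp6v1h rose by 0.70 (SE 0.0630) and Cd63, a lysosomal tetraspanin, by 0.61 (SE 0.0524). With median-ratio scaling of the libraries Atp6v1h was at 0.55 and Cd63 at 0.46, and neither was called. Ctsh, a cathepsin with aminopeptidase activity, fell from 187, 176 and 196 TPM to 81.4, 82.5 and 85.2 TPM (-1.16, SE 0.0418).

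Tests of the difference between responses were run for each strain against C57, which share the C57 libraries. They called 2 of the 37 genes in BALB (5.69% of all genes, either direction), 3 in NOD (11.1%), 2 in PWK (8.81%) and 3 in SPRET (12.6%). Beside Atp6v0a1 and Ctsl, the genes were Ctsc, Ctsh and Psap. In C57, Ctsc stood at 23.5, 22.8 and 22.2 TPM at basal and at 19.2, 17.6 and 15.2 TPM with IL-4, a change of -0.38 that was under the fold required. Relative to that, the Ctsc response was higher by 0.64 in NOD (SE 0.109), by 0.79 in PWK (SE 0.115) and by 1.24 in SPRET (SE 0.109). The NOD value was 0.56 and not called without C57 IL-4 replicate 3. The Ctsh response in SPRET was lower by 0.96 (-0.96, SE 0.0592) and the Psap response higher by 0.73 (SE 0.0556). The response differences of Ctsz (0.31, 95% interval 0.20 to 0.42), Atp6v1h (0.42, 0.25 to 0.60) and Cd63 (0.15, 0.01 to 0.30) were under the fold required. Scaling each library by the median ratio over genes in place of TPM alone moved the direction of these calls, from 2 lower and 1 higher to 3 lower and 0 higher in NOD, from 1 and 1 to 2 and 1 in PWK, and from 1 lower and 2 higher to 3 and 1 in SPRET. Under that scaling Ctsz (-0.72) replaced Ctsc in NOD, and Psap (0.53) was no longer called in SPRET.

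**Figure D2:**
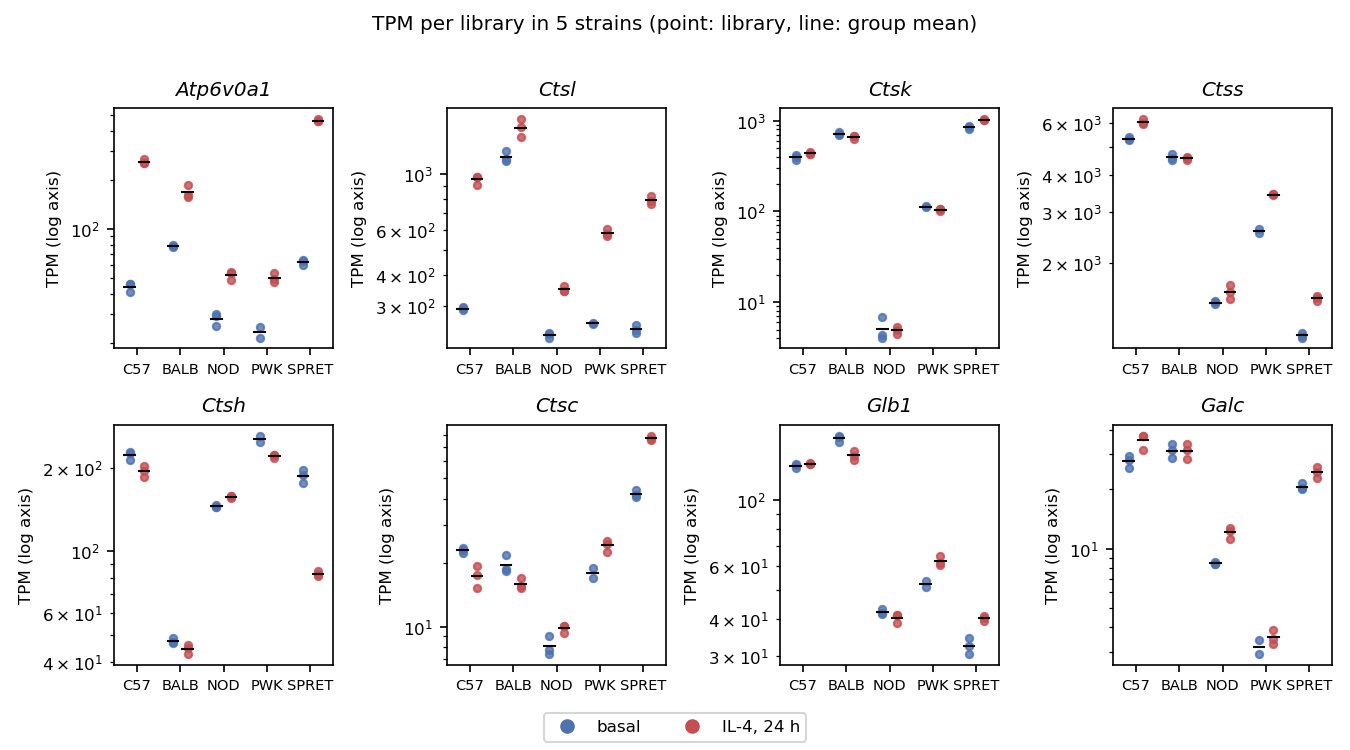
TPM on a log axis for 8 lysosomal genes in the 5 strains, with basal libraries in blue and 24 h IL-4 libraries in red, 1 point per library and a line at each group mean. Atp6v0a1 shows red above blue in every strain, while Ctsk stands at 4.08 to 6.82 TPM in NOD whether treated or not and above 100 TPM in the other strains.

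The second comparison asked how the strains differed before treatment. BALB had 6 of the 37 genes higher than C57 and 1 lower, against 7.01% and 6.08% of all genes tested. NOD had 0 higher and 10 lower (10.3% and 30.1%), PWK 0 higher and 12 lower (9.23% and 20.5%), and SPRET 3 higher and 10 lower (18.3% and 16.9%). At an unadjusted p under 0.05 without the fold, limma gave 33 of the 37 genes for BALB (49.6% of all genes tested), 32 for PWK (64.7%), 31 for NOD (75.9%) and 29 for SPRET (70.7%), in either direction. The median difference of the 37 genes was -0.24 in NOD and -0.39 in PWK, beside -0.30 and -0.16 over all genes tested. It was 0.27 in BALB, beside 0.04, and -0.27 in SPRET, beside 0.02. These 4 comparisons share the C57 libraries, and 26 of the 37 genes were called in at least 1 of them. The share of all genes tested that were called in at least 1 was not counted, so the 26 has no background beside it.

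The NOD counts depended on the scaling. With median-ratio scaling, which moved the median of all genes in this comparison by 0.30 on the log2 scale, NOD had 6 genes lower and 8 higher. Ctsk (-5.69), Ctss (-1.45), Glb1 (-1.21), Galc (-1.23), Ctsc (-1.03) and Tpp1 (-0.81) stayed lower. The 8 called higher under that scaling were Cd68 (0.95), Neu1 (0.94), Ctsz (0.89), Mcoln1 (0.86), Gaa (0.79), Gla (0.74), Ctsa (0.65) and Npc2 (0.65). In PWK the count of lower genes was 7 in place of 12, with 0 higher. Ctsd (-0.47), Hexa (-0.49), Asah1 (-0.38), Npc1 (-0.40) and Atp6v1b2 (-0.42) were no longer called there. In SPRET it was 12 lower and 3 higher.

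Ctsk, the collagen-degrading cathepsin best known from osteoclasts, was called in all 4 strains. It stood at 393, 372 and 417 TPM in C57 and at 4.38, 4.08 and 6.82 TPM in NOD, a difference of -6.04 (SE 0.0929, adjusted p by limma 4.98e-25). NOD libraries given IL-4 held 4.52, 5.28 and 4.97 TPM, so the NOD level was low in all 6 libraries. PWK held 111 and 114 TPM (-1.80, SE 0.104), while BALB held 746, 706 and 699 TPM (0.86, SE 0.0929) and SPRET 881, 810 and 840 TPM (1.10, SE 0.0929). The groups did not overlap, in the order NOD, PWK, C57, BALB, SPRET. The summed level of 7 osteoclast markers, which did not include Ctsk, at basal was 36.7 to 39.3 TPM for SPRET, 35.8 to 37.5 for BALB, 23.5 to 24.6 for PWK, 22.9 to 24.4 for NOD and 20.1 to 25.3 for C57. Oscar, one of these markers, was at 0 in basal C57 and in basal BALB. The part of this marker sum in the Ctsk differences was not tested.

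Ctss, which trims the invariant chain of major histocompatibility complex class II, was called lower in 3 strains. C57 held 5300, 5263 and 5397 TPM, SPRET 1116, 1158 and 1129 TPM (-2.23, SE 0.0333), NOD 1447, 1489 and 1471 TPM (-1.86, SE 0.0333) and PWK 2608 and 2538 TPM (-1.05, SE 0.0372). BALB, at 4721, 4568 and 4486 TPM, was closest to C57. Ctss and Ctsk are neighbours on chromosome 3 in the mm10 annotation of the tables, at positions 95526786 to 95556405 and 95499210 to 95509387 on the plus strand. Both were lower in NOD and PWK, while in SPRET Ctss was lower and Ctsk higher. Ctsh was low in BALB, at 47.1, 48.7 and 46.8 TPM against 214, 228 and 226 TPM in C57 (-2.20, SE 0.0418), and lower in NOD by 0.61 (-0.61, SE 0.0418). Ctsc was lower in NOD, at 7.43, 7.76 and 9.02 TPM (-1.40, SE 0.0770), and higher in SPRET (0.86, SE 0.0770). Ctsz was lower in SPRET (-1.23, SE 0.0394), and Ctsb, the most abundant cysteine cathepsin after Ctss in basal C57 at 5092 to 5260 TPM, was called in no comparison of any table.

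Of the other lumenal proteins that act on peptides, Tpp1, a tripeptidyl peptidase, was lower in NOD (45.5, 48.4 and 50.6 TPM against 116, 124 and 99.7 TPM in C57, -1.21, SE 0.0764). Ctsa, a carboxypeptidase that also protects Glb1 and Neu1 in a complex, was higher in BALB (0.76, SE 0.0352), and Ctsd was lower in PWK (-0.68, SE 0.0343), a call lost with median-ratio scaling. Ppt1, which removes palmitate from proteins, was not called.

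Of the 10 glycosidases and lipid hydrolases, 2 were higher in BALB at basal (7.01% of all genes). In NOD, PWK and SPRET 4, 5 and 5 were lower (30.1%, 20.5% and 16.9% of all genes). Under median-ratio scaling the NOD values of Gusb (-0.52) and Asah1 (-0.48) were not called, nor were Hexa and Asah1 in PWK. Gaa, Gla and Neu1 were then called higher in NOD, as given above. Glb1, the acid beta-galactosidase, stood at 132, 131 and 128 TPM in C57, at 41.6, 41.5 and 43.2 TPM in NOD (-1.61, SE 0.0434), at 53.6 and 51.2 TPM in PWK (-1.30, SE 0.0485) and at 30.4, 34.4 and 32.3 TPM in SPRET (-1.98, SE 0.0434). BALB held 162, 156 and 164 TPM, so BALB and C57 lay above the other 3 strains without overlap. Galc, which degrades galactosylceramide, was lowest in PWK, at 3.45 and 2.93 TPM against 28.1, 29.3 and 25.5 TPM in C57 (-2.77, SE 0.0897), and stood at 8.40, 8.52 and 8.40 TPM in NOD (-1.60, SE 0.0802). Gusb, the beta-glucuronidase, showed the same pair of strains low, with 54.8 and 50.5 TPM in PWK (-2.20, SE 0.0654) and 123, 126 and 137 TPM in NOD (-0.92, SE 0.0585) against 253, 237 and 245 TPM in C57. Gla, the alpha-galactosidase whose promoter is printed above, was low in SPRET at 35.3, 36.2 and 36.6 TPM against 119, 116 and 113 TPM (-1.65, SE 0.0441). Gaa, the acid alpha-glucosidase, was higher in BALB, at 197, 202 and 208 TPM against 97.5, 101 and 93.7 TPM (1.05, SE 0.0594), and lower in SPRET (-0.92). Naglu was higher in BALB (0.60), Asah1 lower in NOD (-0.87) and PWK (-0.59), Hexa lower in PWK (-0.70) and SPRET (-0.93), and Man2b1 lower in SPRET (-0.93). On the TPM scale Neu1 was not called.

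Among the membrane proteins and carriers, Laptm5, a lysosomal protein of blood cells, was lower in PWK, at 189 and 186 TPM against 507, 529 and 504 TPM (-1.45, SE 0.0583), and Npc1 was lower there by 0.61 (-0.61, SE 0.0980). Cd63 was lower in SPRET, at 342, 323 and 359 TPM against 721, 728 and 757 TPM (-1.10, SE 0.0524). Npc2, the lumenal cholesterol carrier, stood at 402, 407 and 413 TPM in SPRET against 1354, 1319 and 1414 TPM (-1.74, SE 0.0323), and Psap was lower there too (-0.92, SE 0.0393). On the TPM scale Lamp1, Lamp2, Cd68, Scarb2, Mcoln1 and Grn were called in no comparison of any table, as were Neu1, Ppt1, Ctsb and Atp6v1a. Cd68 (0.95), Neu1 (0.94) and Mcoln1 (0.86) were called higher in basal NOD under median-ratio scaling. Among the V-ATPase subunits, Atp6v0a1 was higher in BALB (0.81, SE 0.0684) and lower in NOD (-0.63, SE 0.0684) and PWK (-0.89, SE 0.0765). The NOD value was -0.24 with median-ratio scaling and -0.56 without basal NOD replicate 1, and was not called in either. Atp6v1b2 was lower in PWK (-0.63) and Atp6v0d1 higher in SPRET (0.64).

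The time course asked when the genes changed, in libraries separate from those above. In C57, 0, 2 and 3 of the 37 genes were called at 1, 6 and 24 h (2.07%, 6.73% and 15.8% of all genes, either direction). At 1 h limma gave 3 genes at an unadjusted p under 0.05, beside 13.6% of all genes. The genes were Atp6v0a1 and Atp6v1b2 from 6 h and Ctsl at 24 h, the same 3 as in C57 of the 5-strain table. Atp6v0a1 stood at 150 and 152 TPM at basal, 205 and 210 TPM at 1 h, 611 and 591 TPM at 6 h and 821 and 821 TPM at 24 h, with differences from basal of 0.46, 1.99 and 2.44 (SE 0.0547). Ctsl was flat until 6 h, at 538 and 488 TPM, then 517 and 512 TPM, then 552 and 552 TPM, and reached 1348 and 1394 TPM at 24 h (1.42, SE 0.0529). Atp6v1b2 was higher by 0.70 at 6 h and by 0.63 at 24 h. Atp6v0a1 was thus called from 6 h and Ctsl at 24 h alone.

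In SPRET 2, 2 and 7 of the 37 genes were called at 1, 6 and 24 h (4.47%, 11.9% and 15.0% of all genes). Atp6v0a1 rose at each time, from 137 and 151 TPM to 268 and 243 TPM, 778 and 750 TPM, and 756 and 753 TPM (0.83, 2.40 and 2.39, SE 0.0547). Ctsc rose and came back, from 76.3 and 80.1 TPM to 120 and 121 TPM at 1 h, 196 and 202 TPM at 6 h and 80.2 and 80.8 TPM at 24 h (0.62, 1.34 and 0.04, SE 0.0530). The 1 h call was lost without basal replicate 1 (0.58). At 24 h in the 5-strain table the Ctsc change in SPRET was 0.85, so the tables differed for this gene. Psap reached 17034 and 16472 TPM at 24 h from 7335 and 7189 TPM (1.21, SE 0.0531), with a change of 0.23 at 6 h. Ctsl rose from 104 and 104 TPM to 175 and 190 TPM (0.81, SE 0.0529), Ctsz by 0.67, Ctsk by 0.61 and Atp6v1h by 0.59, while Man2b1, the alpha-mannosidase, fell from 130 and 137 TPM to 81.8 and 73.7 TPM (-0.77, SE 0.0606). Of the genes called higher at 24 h in SPRET, 5 were called in both tables (Atp6v0a1, Atp6v1h, Ctsl, Ctsz and Psap), out of 7 in one and 6 in the other. None of the genes called lower was shared, with 1 in each table. Sharing between the tables was not counted over all genes tested, so these counts have no background beside them. Ctsh, at -1.16 in the 5-strain table, stood at 135 and 128 TPM and then 157 and 141 TPM at 24 h here (0.18, SE 0.0766).

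Before treatment, the time-course libraries of SPRET had 4 of the 37 genes higher and 12 lower than C57 (19.2% and 15.7% of all genes), or 2 higher and 14 lower with median-ratio scaling. Both tables called 8 genes lower, of 10 and 12, namely Cd63, Ctss, Ctsz, Gaa, Gla, Glb1, Man2b1 and Npc2. Ctsc and Ctsk were called higher in both, of 3 and 4. Here too the sharing over all genes tested was not counted. Ctss was lower by 1.87 on the log2 scale here (-1.87, SE 0.0543), Gla by 1.80 (-1.80, SE 0.0755), Cd63 by 1.49 (-1.49, SE 0.116) and Glb1 by 1.48 (-1.48, SE 0.0603). Ctsl was the largest departure between the tables, with a basal difference of -2.29 (SE 0.0529) here and -0.27 (SE 0.0486) in the 5-strain table. What sets these tables apart for Ctsl, Ctsh and Ctsc was not tested.

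**Figure D3:**
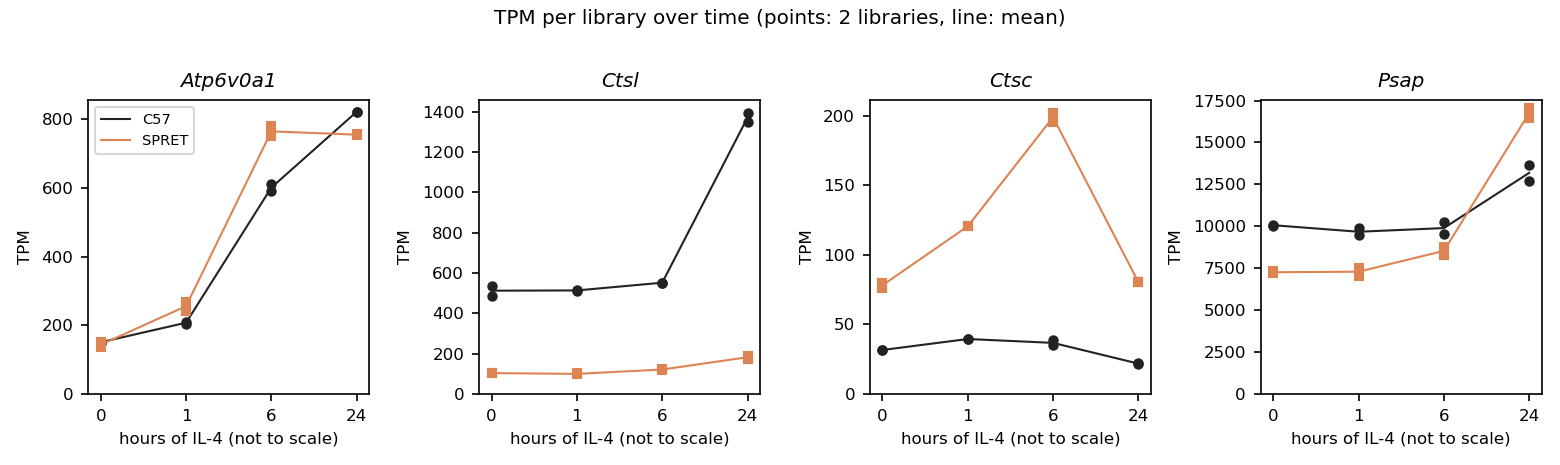
TPM against hours of IL-4 (horizontal axis not to scale) for 4 lysosomal genes in C57 (black circles) and SPRET (orange squares), with 2 libraries per point in time and lines through the means. Ctsc in SPRET peaks at 196 and 202 TPM at 6 h, Psap in SPRET passes C57 at 24 h, and Ctsl in C57 rises only between 6 and 24 h.

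The Egr2 set asked how the genes behaved without EGR2, a transcription factor that IL-4 induces. Egr2 itself stood at 23.6 and 21.3 TPM in basal Egr2WT and 101 and 99.5 TPM at 24 h, against 0.859 and 0.854 TPM and 4.72 and 7.05 TPM in Egr2MKO, so its message was low in the knockout at both times. In Egr2WT, 0, 2 and 3 of the 37 lysosomal genes were called at 1, 6 and 24 h of IL-4 (1.58%, 8.24% and 11.5% of all genes), and at 1 h limma gave 7 at an unadjusted p under 0.05, beside 12.3% of all genes. Again they were Atp6v0a1 and Atp6v1b2 at 6 h, joined by Ctsl at 24 h. All 3 genes called in C57 cells at 24 h were thus called in each of the 3 tables. Over all genes tested, sharing among the 3 tables was not counted. Ctsl stood at 286 and 324 TPM at basal, 321 and 315 TPM at 6 h and 923 and 918 TPM at 24 h (1.59, SE 0.0473).

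Between genotypes, limma called 0 of the 37 genes at basal, at 1 h and at 6 h, and 1 at 24 h (2.96%, 3.29%, 6.61% and 12.5% of all genes). At an unadjusted p under 0.05, without the fold, limma gave 22, 24 and 22 of the 37 genes at basal, 1 h and 6 h, in either direction, beside 23.7%, 23.6% and 33.7% of all genes. The gene called at 24 h was Cd63, at 523 and 486 TPM in Egr2WT and 297 and 296 TPM in Egr2MKO (-0.76, SE 0.0684, adjusted p by limma 3.8e-06). At basal it stood at 341 and 407 TPM and at 328 and 347 TPM, where the genotypes overlapped. The test of the difference in response called Cd63 alone (1 of 37, against 5.73% of all genes), at -0.62 (SE 0.0968, adjusted p by limma 0.00124). This call was lost without basal Egr2MKO replicate 2 (-0.58), without Egr2WT replicate 1 at 24 h (-0.57) and without basal Egr2WT replicate 1 (-0.49). The osteoclast marker sum was 215.5 to 225.5 TPM in Egr2WT at 24 h and 78.6 to 83.1 TPM in Egr2MKO, with Calcr at 0 in both, and its part in the Cd63 result was not tested.

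Several lysosomal genes differed between genotypes at 24 h by less than the fold required. Psap was lower in Egr2MKO, at 8899 and 8750 TPM against 12976 and 12674 TPM (-0.54, SE 0.0269), Ctsk was at -0.57 (SE 0.0503) and Gaa at -0.48 (SE 0.0678), while Hexa was higher (0.54, SE 0.0342). With median-ratio scaling, which moved the median of all genes in this comparison by 0.12, Ctsk (-0.71), Psap (-0.68) and Gaa (-0.61) were called beside Cd63 (-0.90). Atp6v0a1 and Ctsl, the genes that IL-4 moved in most strains, rose in Egr2WT, and their 24 h libraries in Egr2MKO also lay above the basal ones. Atp6v0a1 stood at 93.4 and 87.5 TPM at basal and 379 and 409 TPM at 24 h in Egr2MKO, against 136 and 118 TPM and 507 and 522 TPM in Egr2WT, and the difference in response was 0.10 (95% interval -0.08 to 0.28). For Ctsl, at 280 and 281 TPM and then 819 and 797 TPM in Egr2MKO, it was -0.07 (95% interval -0.20 to 0.06).

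**Figure D4:**
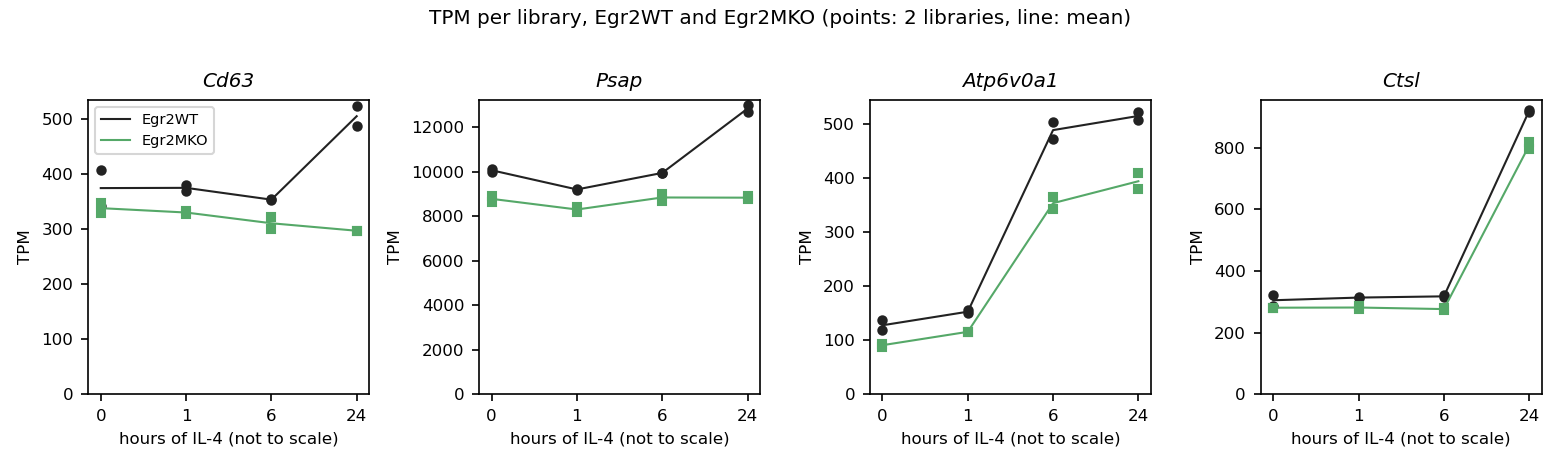
TPM against hours of IL-4 (horizontal axis not to scale) for 4 lysosomal genes in Egr2WT (black circles) and Egr2MKO (green squares), with 2 libraries per point in time and lines through the means. The genotypes part at 24 h for Cd63 and Psap, where Egr2MKO libraries stand at 297 and 296 TPM and at 8899 and 8750 TPM, while Ctsl rises in both.

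F1 hybrids put both alleles in the same culture. Gla and Lamp2 lie on the X chromosome, and whether both X chromosomes were equally active in these cells was not tested. Their values are weighted TPM per allele, of unknown read depth, with 2 libraries per group, and differences are on the log2(value + 1) scale as the other allele minus the C57 allele, without a test. For C57xSPRET all 37 genes had values. Of the 13 genes whose basal strains differed by over 1.5-fold, 12 had the same sign between alleles, and 4 of these were also past 1.5-fold (Ctsc, Ctss, Gla and Cd63). The 12 include Ctsk, whose 2 libraries fell on both sides of 0 (-0.01 and 0.01). The share of all genes with the same sign was not counted. Across all genes with values of at least 1, the median difference between these alleles was 0.05. The Ctss alleles stood at 1639 and 1443 for C57 and 738 and 669 for SPRET (-1.13, beside -2.23 between strains), and the Gla alleles at 151 and 147 against 78.5 and 79.4 (-0.91, beside -1.65 between strains). The Cd63 alleles stood at 714 and 816 against 260 and 245 (-1.59, beside -1.10). Ctsc alleles were at 28.8 and 23.3 against 49.0 and 44.9 (0.83, beside 0.86).

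Other basal strain differences were small between alleles. The allele difference was -0.34 for Glb1 (strains -1.98), -0.29 for Npc2 (-1.74), -0.24 for Ctsz (-1.23) and 0.00 for Ctsk (1.10). Psap alleles had the opposite sign, 0.27 beside -0.92. Ctsh alleles, at 80.8 and 78.4 against 41.2 and 42.7, differed by -0.91 where basal strains differed by -0.26. After IL-4 the Ctsh difference was -0.90 between alleles and -1.21 between strains, that of Atp6v0a1 was 0.46 and 0.84, and that of Ctsl was 0.62 and -0.27.

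For C57xNOD only 13 of the 37 genes had values, and 24 were listed at 0. The Ctsk alleles stood at 2548 and 2369 for C57 and 830 and 688 for NOD, a difference of -1.70 where the strains differed by -6.04. Ctss alleles differed by -0.67 (strains -1.86), Glb1 by -0.53 (-1.61), Ctsc by -0.47 (-1.40) and Tpp1 by -0.35 (-1.21). All 6 genes past 1.5-fold between basal strains had the same sign between alleles, and 2 of them, Ctsk and Ctss, were past 1.5-fold there too. The share of all genes with the same sign was not counted in this cross either. Ctsl alleles were nearly even after IL-4 (0.11), where the strains differed by -1.45.

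**Figure D5:**
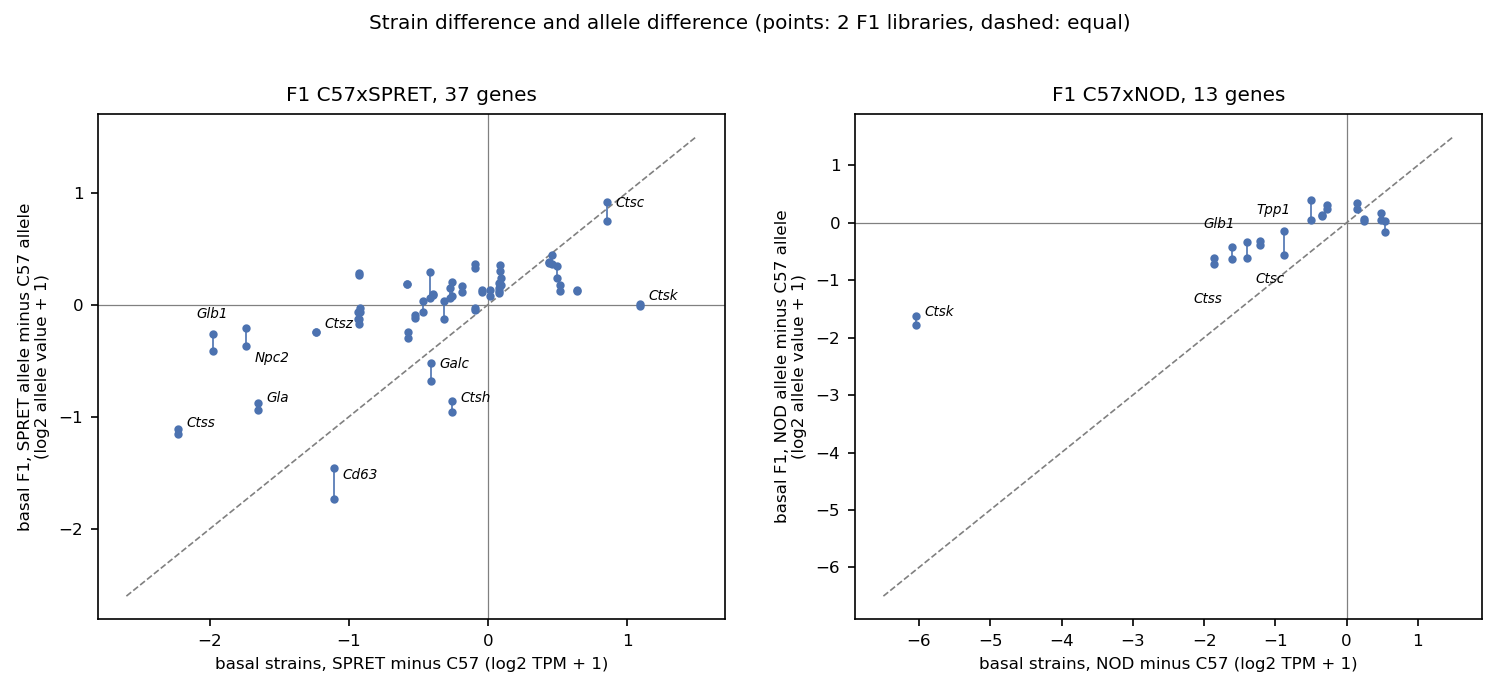
Basal allele difference in F1 cells (vertical axis, log2 of allele value + 1, other allele minus C57 allele, 2 joined points per gene for the 2 libraries) against the basal strain difference (horizontal axis, log2 of TPM + 1), for 37 genes of C57xSPRET and 13 of C57xNOD. The dashed line marks equal differences, and many genes lie between it and 0 on the vertical axis, such as Ctsk of NOD at -1.70 and -6.04. Others have opposite signs on the 2 axes, such as Psap of SPRET at 0.27 and -0.92. Cd63, Ctsh and Galc of SPRET lie further below 0 between alleles than between strains.

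Further lysosomal genes outside the 37 were counted from lists. Of 29 other hydrolases tested, 2, 0, 1, 2 and 2 rose with IL-4 in C57, BALB, NOD, PWK and SPRET and 2, 1, 0, 1 and 2 fell. Of 16 other membrane and transport genes, 2, 0, 1, 2 and 3 rose and 1, 0, 0, 0 and 2 fell. Among 13 other V-ATPase subunits, 1 rose in every strain, which was Atp6v0d2, a d subunit known from osteoclasts and macrophages, by 2.32, 1.14, 1.24, 1.39 and 3.64 in the same order, and 1 fell in SPRET, which was Tcirg1, an a subunit (-0.69). Of 7 cathepsin inhibitors, 1, 1, 1, 2 and 2 rose and 1, 0, 1, 2 and 0 fell, with Cst7 (cystatin F) higher by 1.65, 1.35, 0.84, 1.12 and 2.30. Of 10 sorting genes, 2 rose in SPRET and 1 fell in C57. Without EGR2, Atp6v0d2 was lower at basal, at 15.7 and 16.5 TPM against 126 and 123 TPM (-2.88, SE 0.0478), and at 24 h, at 126 and 116 TPM against 630 and 659 TPM (-2.40, SE 0.0478). Sgsh, a sulfamidase of heparan sulfate, was higher at 24 h in Egr2MKO (43.9 and 39.3 TPM against 8.93 and 8.77 TPM, 2.11, SE 0.0691) and was 1 of the 6 genes among 29 other hydrolases called higher there, with 0 lower, beside 7.44% and 5.04% of all genes.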

How the data were processed

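Polyadenylated RNA of 61 BMDM libraries and 8 F1 libraries was analysed. Per the labels and the study's methods, the authors sequenced strand-marked single-end libraries, mapped reads with STAR 2.5.3 to each strain's own genome, moved them to mm10 coordinates with MMARGE 1.0 and counted genes with HOMER 4.11.1. The deposited values are TPM, which remove depth and transcript length but not differences in composition between libraries. Read counts per gene were not used here, so no counting intervals are given. The F1 signal values were deposited as TPM weighted by the authors with the allele ratio of reads, multiplied by 10. The authors' own DESeq2 columns of fold changes and p-values, and a human macrophage table, were not used.

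Tested were the 11907, 12088 and 12079 genes that reached 1 TPM in 2 or more libraries of their table. The scale was log2(TPM + 1), and the test was limma 3.58.1 (R 4.3.3) with 1 mean per group, a trended prior and Benjamini-Hochberg adjustment, in 28 comparisons. A pseudocount of 1 understates changes of low genes. On simulated data, changes of 1 and 2 on the log2 scale were given to a random part of the genes above a set mean level. For C57 at 24 h (11907 genes in the fit) 100% and 100% of the genes given a change were called. For C57 at 1 h (12088) it was 99% and 100%, and for Egr2WT at 1 h (12079) 95% and 97%. Lower genes were given no change. Per the study's methods replicates were separate biological samples. Same-numbered libraries did not deviate together (mean residual correlation 0.013, 0.030 and -0.0046), so no pairing was used. Alternatives were pseudocounts of 0.1 and 5 TPM, no filter, median-ratio scaling, a fit of the compared groups only, a replicate block and leaving out each library. Named in full were the up to 4 largest non-overlapping calls of each comparison, genes called with IL-4 in at least 3 strains, and genes called at basal in at least 3 of 4 strains. Outside the 37 genes, at most 3 called genes per list were eligible. The members, lists and motifs were chosen with earlier results of these data known.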

Additional observations from a re-analysis of the deposited data

Results flagged for a closer look

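The response to 24 h of IL-4 differed from that of C57, by the limma test of the difference itself, for the lysosomal genes below, with values on the log2(TPM + 1) scale. Atp6v0a1 responded less in BALB (-1.43, SE 0.0967), NOD (-1.65, SE 0.0967) and PWK (-1.45, SE 0.103). Ctsl responded less in BALB (-1.32, SE 0.0687) and NOD (-1.10, SE 0.0687), and the BALB basal level of Ctsl already lay above the treated C57 level. Ctsc, at -0.38 in C57, differed upward in NOD (0.64, SE 0.109), PWK (0.79, SE 0.115) and SPRET (1.24, SE 0.109), while in the SPRET time course the Ctsc change at 24 h was 0.04 (SE 0.0530). Ctsh (-0.96, SE 0.0592) and Psap (0.73, SE 0.0556) differed in SPRET, while the Ctsh change in that time course was 0.18 (SE 0.0766). Between Egr2 genotypes the response of Cd63 differed (-0.62, SE 0.0968), beside an osteoclast marker sum of 215.5 to 225.5 TPM in Egr2WT and 78.6 to 83.1 TPM in Egr2MKO at 24 h whose part was not tested.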

How the results depend on the processing

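None of the 74 log2 values named in full changed sign under the alternatives run. Values outside these did change sign with median-ratio scaling, and such changes were not counted. The SPRET response differences of Cd63 and Ctsl turned negative, at -0.05 and -0.19. In basal NOD relative to C57, several values under the fold turned from negative to positive. Among them were Ctsd (-0.06 to 0.35), Grn (-0.06 to 0.34) and Lamp1 (-0.22 to 0.18). The split of calls by direction moved with median-ratio scaling in basal NOD (10 lower and 0 higher to 6 and 8), in the response differences of NOD, PWK and SPRET and in basal SPRET of the time course, as given above. The counts of called lysosomal genes in all 28 comparisons were within 1.5 times the reported ones without a filter, with the compared groups only and with a pseudocount of 0.1 TPM. Same-numbered libraries were not shown to be paired, and with a replicate block the 28 counts were again within 1.5 times (for C57 with IL-4, 3 genes called). With median-ratio scaling the counts were 1 in place of 2 for NOD with IL-4, 2 in place of 4 for PWK with IL-4, 7 in place of 12 for basal PWK, and 4 in place of 1 for Egr2MKO at 24 h, and 10 of 28 medians over all genes moved by over 0.1, the most by 0.30 in basal NOD. A pseudocount of 5 TPM gave 2 for PWK with IL-4. Leaving out 1 library gave 1 to 3 for NOD with IL-4, 2 to 4 for PWK with IL-4, 1 to 2 for SPRET at 1 h of the time course, 0 to 1 for basal Egr2MKO (Atp6v0a1, without basal Egr2WT replicate 2), 1 to 2 for Egr2MKO at 24 h (Ctsk added without Egr2MKO replicate 2 or Egr2WT replicate 2 at 24 h) and 0 to 1 for its response difference. Of 163 such counts 152 were within 1.5 times. The causes were not tested. Of 74 named values 70 were calls, and median-ratio scaling lost 6 of these, namely Ctsl in NOD (0.41), Npc1 (0.48) and Atp6v1b2 (0.46) in PWK, the Ctsc response in NOD (0.43), the Psap response in SPRET (0.53) and basal Atp6v0a1 in NOD (-0.24). A pseudocount of 5 TPM lost 4. Precision rests on 2 or 3 libraries per group, and the depth behind single genes was not used here.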
